A study of Mus musculus with 9 samples.

Results

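The 10 genes described here encode the main proteins that mouse mammary cells secrete into milk and the proteins that release milk fat. They were taken by name from the 55450 genes of a bulk RNA-seq count table. Csn1s1, Csn1s2a, Csn2 and Csn3 encode caseins, Wap, Lalba and Glycam1 encode soluble proteins of the milk serum, and Xdh, Btn1a1 and Plin2 encode the proteins of the milk fat globule surface. The libraries came from adult nulliparous female mice, so none of the animals had lactated.

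EYFP+ mammary cells were sorted live and sequenced in 3 libraries per genotype. Control mice carried lsl-EYFP and K8CreERT2, a tamoxifen-activated Cre under the keratin 8 promoter, which is active in luminal cells. LATS1/2-KO mice had, besides these alleles, floxed copies of both kinase genes (LATS1/2f/f). LATS1/2-Sox9-KO mice had those and floxed Sox9 (Sox9f/f) as well. All 3 groups, controls included, received 2 mg tamoxifen on 5 consecutive days and were sorted 7 days after the last dose. The sort took every live EYFP+ cell, with no antibody against a lineage marker, so it followed Cre activity and not present cell identity. The total count per library was 44167762 to 47003587 in control, 50508666 to 61745346 in LATS1/2-KO and 55503365 to 61967651 in LATS1/2-Sox9-KO. Nothing in the labels says whether the libraries of a group came from separate mice, and the p-values therefore measure only the spread between these libraries, which may be technical.

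Milk production is the task of alveolar luminal cells. Prolactin acts through its receptor and the transcription factors STAT5A and STAT5B, together with ELF5, to switch on the milk protein genes in pregnancy, and several of these genes already have a low activity in luminal progenitors of the virgin gland. Caseins are phosphorylated in the Golgi, packed into micelles and released by exocytosis. Fat leaves the cell differently: a cytoplasmic droplet coated with PLIN2 is wrapped in apical membrane that holds butyrophilin, encoded by Btn1a1, bound to xanthine dehydrogenase, encoded by Xdh.

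In GRCm38, the 4 casein genes lie in 1 cluster on chromosome 5, with Csn1s1 at chr5:87666208-87682578, Csn2 at chr5:87692624-87699630, Csn1s2a at chr5:87774567-87788797 and Csn3 at chr5:87925579-87932665. The other genes are dispersed, with Wap at chr11:6635482-6638637, Lalba at chr15:98480400-98482721, Glycam1 at chr15:103562759-103565081, Xdh at chr17:73883895-73950196, Btn1a1 at chr13:23456992-23465901 and Plin2 at chr4:86648386-86670060. RefSeq promoter sequence (GRCm38.p6) was matched for 7 of the 10 genes. It was searched on both strands, in the 250 bases before the start, for TTCNNNGAA, the consensus of STAT factors such as STAT5. The motif stood in 3 of the 7, the promoters of Csn1s1, Csn2 and Glycam1, and in 7.01% of 32817 promoters of the same length. The 150 bases before the start of these 3 genes are shown on the strand of the gene, with the motif in capitals, because the prolactin signal to milk genes runs through STAT5, whose genes are described further on. They are chr5:87666058-87666207 on the plus strand for Csn1s1, chr5:87699426-87699575 on the minus strand for Csn2 and chr15:103565082-103565231 on the minus strand for Glycam1. RefSeq sets the start of Csn2 205 bases inside the gene span given above, which comes from another annotation, and the Csn2 stretch therefore lies within that span.
Csn1s1: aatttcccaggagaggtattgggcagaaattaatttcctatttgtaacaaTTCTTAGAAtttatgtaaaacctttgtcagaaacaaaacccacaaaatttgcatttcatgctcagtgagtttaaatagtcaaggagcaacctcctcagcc
Csn2: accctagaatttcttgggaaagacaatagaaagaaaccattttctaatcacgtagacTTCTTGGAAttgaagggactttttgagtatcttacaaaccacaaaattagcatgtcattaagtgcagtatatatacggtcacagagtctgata
Glycam1: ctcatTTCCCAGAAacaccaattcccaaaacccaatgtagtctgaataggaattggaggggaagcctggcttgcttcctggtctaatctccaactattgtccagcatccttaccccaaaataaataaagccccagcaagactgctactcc
The motif spans 100 to 92 bases before the start of Csn1s1, 93 to 85 before that of Csn2 and 145 to 137 before that of Glycam1. The TEAD core GGAATG, the TATA box TATAAA and the NFI palindrome were found in 0 of the 7 promoters and in 12.6%, 12.4% and 0.704% of all promoters. A match is a description of letters and not of a bound site.

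The genotypes were checked first on the deleted genes. Lats1 had a normalised count of 5847 ± 152 in control, 2116 ± 208 in LATS1/2-KO and 1870 ± 176 in LATS1/2-Sox9-KO (SD, n = 3 in each group), where normalised counts were brought to one common depth, the average of the TMM-scaled library sizes. Lats2 did not follow its label, with 1041 ± 177 in control, 1471 ± 236 in LATS1/2-KO and 1592 ± 359 in LATS1/2-Sox9-KO, and counts summed over a whole gene do not resolve a deleted exon. Sox9 was 21600 ± 1683 in control, 9715 ± 2620 in LATS1/2-KO and 7343 ± 1281 in LATS1/2-Sox9-KO, so that it was also lower where only Lats1 and Lats2 were targeted. The group names are therefore those of the labels: a LATS1/2-KO library is a library labelled so.

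Luminal identity was checked on 10 markers, of which Krt18 was the most abundant. Their summed normalised counts lay between 982600 and 1122000 in the 3 control libraries, between 1040000 and 1077000 in LATS1/2-KO and between 1467000 and 1760000 in LATS1/2-Sox9-KO. A gene was called changed where its absolute log2 fold change exceeded 1 at an adjusted p of at most 0.05. Of the 10 markers 0 were called higher and 3 lower in LATS1/2-KO, namely Prom1 (log2 fold change −4.63, adjusted p = 0.000723 in edgeR), the luminal transcription factor gene Gata3 (−2.39) and Krt19 (−1.03), with a list median of −0.45. In LATS1/2-Sox9-KO 2 were higher (Krt8 and Krt18) and 3 lower (Prom1, Gata3 and Epcam), with a median of −0.22. Over all tested genes, 17.1% were called higher and 17.5% lower in LATS1/2-KO and 17.8% and 19.6% in LATS1/2-Sox9-KO, and the counts of every marker list here and further on stand beside these shares. The summed count of 10 basal markers, led by Krt14, was 5509 to 6779 in control, 158300 to 271300 in LATS1/2-KO and 160200 to 387700 in LATS1/2-Sox9-KO. Krt14 was the largest part of the knockout sum, at 139500 to 253000 in LATS1/2-KO and 117100 to 349700 in LATS1/2-Sox9-KO. The other basal markers were mixed: of the 10, 5 were called higher and 3 lower in LATS1/2-KO and 4 higher and 4 lower in LATS1/2-Sox9-KO, each against control, with Krt17, a basal keratin, higher in both (log2 fold changes 3.99 and 6.76, adjusted p = 4.86e-06 and 4.92e-07 in edgeR), as was the smooth muscle actin gene Acta2 (3.72 and 2.39, adjusted p = 3.88e-06 and 2.33e-05). Trp63, the basal transcription factor p63, was lower in both (−4.82 and −4.19, adjusted p = 0.000291 and 0.000503 in edgeR). The 4 lower basal markers became 2 without LATS1/2-Sox9-KO replicate 1.

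Some libraries stood apart. Control replicate 3 had a summed count of 10 alveolar progenitor markers, led by Mfge8, of 124500, against 343500 and 384000 in control replicates 1 and 2. Trf, the iron carrier transferrin and one of these markers, was at 22400 normalised counts there and at 138000 and 156700 in the other controls. This library was not poor in all luminal RNA, since its luminal sum of 1122000 was the highest of the controls and its normalised count of Pgr, the progesterone receptor of hormone-sensing cells, was 30020 against 17140 and 20900. Trf and Pgr were picked out here after their values were seen. Adipocyte RNA divided the knockout libraries in another way. Adipoq, a secreted hormone made by fat cells, had 0, 0 and 3 counts in control replicates 1, 2 and 3, 2, 347 and 179 in the LATS1/2-KO replicates and 1, 98 and 47 in the LATS1/2-Sox9-KO replicates. By Adipoq, replicates 2 and 3 of both knockout groups carried adipocyte RNA and replicate 1 of both groups next to none, and Cfd, Cidec, Car3, Cyp2e1, Pck1 and Retn divided these libraries in the same way. Lep, another hormone of fat cells, did not: it had 0 counts in every control library, 5, 127 and 61 in LATS1/2-KO and 34, 9 and 20 in LATS1/2-Sox9-KO.

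Among the caseins, Csn3 had the highest level, at a mean normalised count per kilobase of exon of 9107 in control against 45.56 for Csn1s1, the next. Csn3 encodes kappa-casein, which coats the casein micelle and keeps it soluble. It made up at least 98.03% of the counts of the 4 caseins in every library. Its normalised count was 39550, 45730 and 28160 in control replicates 1, 2 and 3, then 19770, 20120 and 19700 in LATS1/2-KO and 9287, 5101 and 6549 in LATS1/2-Sox9-KO. The 3 groups did not overlap, with control highest and LATS1/2-Sox9-KO lowest.

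Csn3 was 5.42-fold lower in LATS1/2-Sox9-KO than in control (log2 fold change −2.44, SE 0.23, adjusted p = 1.61e-05 by edgeR's quasi-likelihood test). In LATS1/2-KO against control Csn3 passed on p and missed on size, at −0.93 (SE 0.22, adjusted p = 0.00536 in edgeR). Without control replicate 3 that difference was −1.12 (adjusted p = 0.00199 in edgeR), past both thresholds. Between the knockout groups Csn3 was 2.85-fold lower in LATS1/2-Sox9-KO, at −1.51 (SE 0.23, adjusted p = 0.008 in edgeR), and it was the single milk gene called in that comparison. With the 4 adipocyte-bearing libraries left out, which leaves 1 library per knockout group, this difference was −1.05 (adjusted p = 0.256 in edgeR).

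The other caseins were present at 0 to 580 counts per library, and the control libraries scattered widely. Csn1s1, encoding alpha-S1-casein, had raw counts of 167, 580 and 2 in control replicates 1, 2 and 3, of 91, 133 and 390 in LATS1/2-KO and of 18, 50 and 95 in LATS1/2-Sox9-KO. The control group alone covered the whole range of both knockouts. The log2 fold change of Csn1s1 was −0.61 (SE 1.14, adjusted p = 0.675) in LATS1/2-KO and −2.48 (SE 1.22, adjusted p = 0.107) in LATS1/2-Sox9-KO against control, neither past the threshold in edgeR. Without control replicate 3 the LATS1/2-Sox9-KO value was −3.05 (adjusted p = 0.0104 in edgeR). Without control replicate 2 it was −0.95 (adjusted p = 0.541), and the LATS1/2-KO value turned to 0.92.

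Csn2 encodes beta-casein, a major protein of mouse milk. Its raw counts were 55, 162 and 0 in control, 9, 7 and 43 in LATS1/2-KO and 0, 0 and 9 in LATS1/2-Sox9-KO. The groups overlapped through control replicate 3, which had no count. Csn2 was called lower in LATS1/2-Sox9-KO than in control (log2 fold change −4.83, SE 1.69, adjusted p = 0.0323 in edgeR), a call lost in 8 of 15 alternative fits, and it missed the threshold in LATS1/2-KO (−2.19, SE 1.42, adjusted p = 0.217). With 1 library left out these values ranged from −9.36, without LATS1/2-Sox9-KO replicate 3, to −3.47, without control replicate 2, and from −3.44, without LATS1/2-KO replicate 3, to −0.83, without control replicate 2. Csn1s2a, the mouse casein known as gamma-casein, had 7, 28 and 3 counts in control, 4, 3 and 0 in LATS1/2-KO and 1, 0 and 0 in LATS1/2-Sox9-KO, too few to pass the filter on low counts. Over the 3 libraries together, and scaled for depth, the control count of 38 stood 6.98 times above the 7 counts of LATS1/2-KO (95% exact interval 3.08 to 18.5) and 47.4 times above the single count of LATS1/2-Sox9-KO (8.01 to 1920). These intervals cover counting error only and not the spread between libraries.

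**Figure D1:**
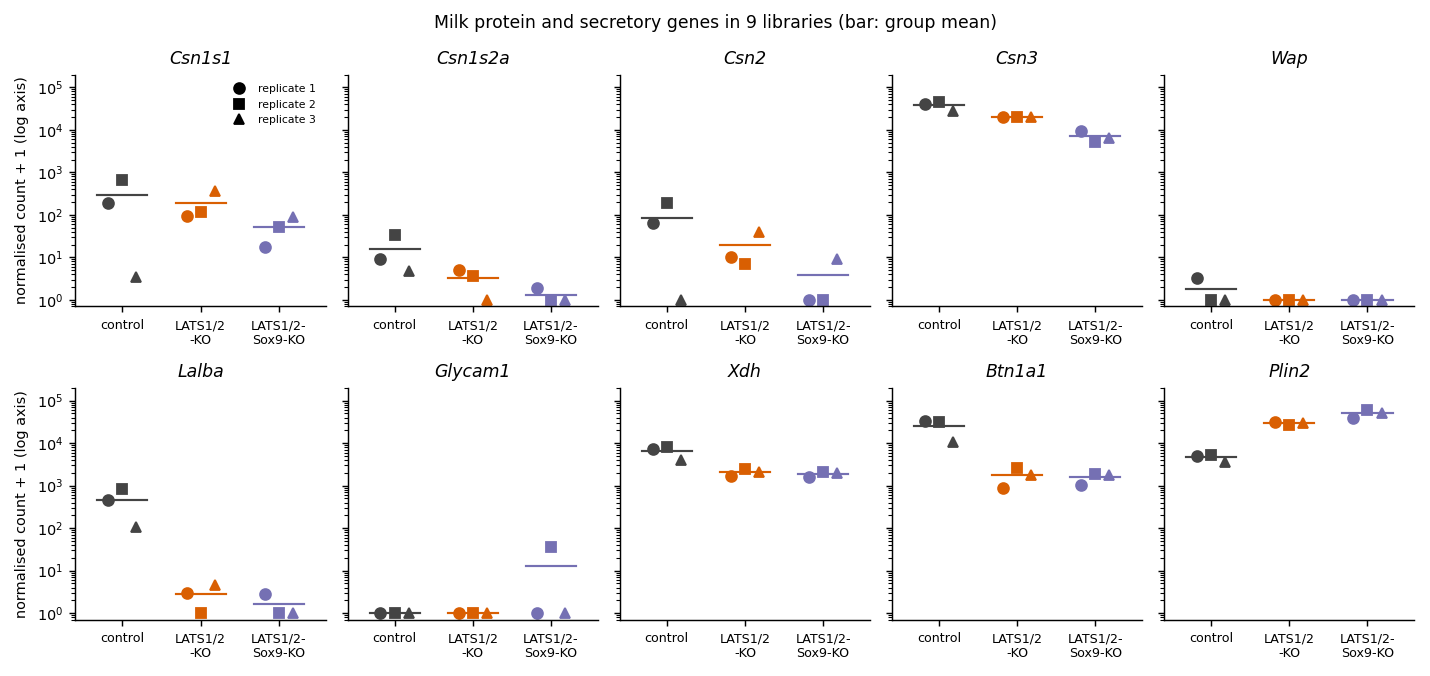
Normalised counts plus 1, on a log axis, of the 10 milk genes in each of the 9 libraries, with 1 point per library and a bar for the group mean. Csn3 falls from 28160 to 45730 in control to 5101 to 9287 in LATS1/2-Sox9-KO, Plin2 rises from 3577 to 5377 to 39320 to 60800, and control replicate 3 is the lowest control for Csn1s1, Csn2, Csn3, Lalba, Btn1a1, Xdh and Plin2.

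The serum proteins divided into 1 gene that all but vanished and 2 that were hardly read at all. Lalba encodes alpha-lactalbumin, the subunit that directs galactosyltransferase to make lactose. Its raw counts were 384, 745 and 85 in control, 2, 0 and 4 in LATS1/2-KO and 2, 0 and 0 in LATS1/2-Sox9-KO. Every control library lay above every knockout library, even control replicate 3. Lalba was lower in LATS1/2-KO, at a log2 fold change of −7.89 (SE 1.03, adjusted p = 0.000136), and in LATS1/2-Sox9-KO, at −9.27 (SE 1.15, adjusted p = 8.53e-05, both in edgeR). Fitted values of this size rest on counts near 0. As summed counts scaled for depth, control stood 260 times above LATS1/2-KO (95% exact interval 119 to 710, from 1214 and 6 counts) and 757 times above LATS1/2-Sox9-KO (209 to 6260, from 1214 and 2 counts). These intervals too cover counting error only, while the control libraries alone ran from 105.8 to 844.8 normalised counts. The knockout groups could not be told apart at 6 against 2 counts (log2 fold change −1.39, SE 1.71, adjusted p = 0.69 in edgeR).

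Wap, encoding whey acidic protein, had 2 counts in control replicate 1 and 0 in each of the other 8 libraries. Glycam1, a mucin-like protein of milk that is also made by vessels of lymph nodes, had 36 counts in LATS1/2-Sox9-KO replicate 2 and 0 elsewhere. That single library had 0 counts of Chst4 and 6 of Madcam1, which are further genes of such vessels and were looked at after the Glycam1 count was seen. Libraries without a Glycam1 count had such counts too. Madcam1 was at 9 in control replicate 3, 8 in LATS1/2-KO replicate 2 and 7 in LATS1/2-Sox9-KO replicate 3. Chst4 was at 9 in LATS1/2-KO replicate 1. No fold change is given for Wap or Glycam1.

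The milk fat globule genes moved apart. Btn1a1 and Xdh fell to similar levels in both knockouts, while Plin2, which coats the droplet inside the cell, rose. Btn1a1 had normalised counts of 33960, 31370 and 10450 in control, 878.6, 2595 and 1809 in LATS1/2-KO and 1040, 1896 and 1773 in LATS1/2-Sox9-KO. The lowest control, replicate 3, was still above every knockout library. Btn1a1 was 14.3-fold lower in LATS1/2-KO (log2 fold change −3.84, SE 0.52, adjusted p = 0.000174) and 16.1-fold lower in LATS1/2-Sox9-KO (−4.01, SE 0.53, adjusted p = 0.000119, both in edgeR).

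Xdh, whose product also degrades purines in many tissues, had normalised counts of 7313, 8284 and 4016 in control, 1650, 2477 and 2141 in LATS1/2-KO and 1637, 2056 and 2015 in LATS1/2-Sox9-KO. Again control and knockout libraries did not overlap. The decrease was 3.13-fold in LATS1/2-KO (log2 fold change −1.65, SE 0.26, adjusted p = 0.000402) and 3.44-fold in LATS1/2-Sox9-KO (−1.78, SE 0.26, adjusted p = 0.000219, both in edgeR). Between the knockouts the log2 differences were −0.17 (SE 0.47, adjusted p = 0.875) for Btn1a1 and −0.14 (SE 0.25, adjusted p = 0.801) for Xdh in edgeR, both within about 1 SE of 0.

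Plin2 had normalised counts of 4857, 5377 and 3577 in control, 31440, 26540 and 29140 in LATS1/2-KO and 39320, 60800 and 52520 in LATS1/2-Sox9-KO. The 3 groups were fully separated, in the order opposite to Csn3. Plin2 was 6.31-fold higher in LATS1/2-KO (log2 fold change 2.66, SE 0.20, adjusted p = 5.54e-06) and 11.1-fold higher in LATS1/2-Sox9-KO (3.47, SE 0.20, adjusted p = 1.22e-06, both in edgeR). The step between the knockouts, 1.75-fold at a log2 value of 0.81 (SE 0.19, adjusted p = 0.0335 in edgeR), passed on p and missed on size.

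PLIN2 is found on droplets of many cell types, and adipocyte RNA was present in some knockout libraries, so its level was read beside theirs. LATS1/2-KO replicate 1 had 31440 normalised counts of Plin2 with 2 counts of Adipoq and 5 of Lep. LATS1/2-Sox9-KO replicate 1 had 39320 with 1 count of Adipoq and 34 of Lep. The part of adipocyte RNA in the Plin2 values was not tested. With the 4 adipocyte-bearing libraries left out, the log2 fold change of Plin2 was 2.75 (adjusted p = 0.00188) in LATS1/2-KO and 3.12 (adjusted p = 0.000938) in LATS1/2-Sox9-KO against control in edgeR, where the single library left per knockout group is assumed to vary like the controls. Between the knockouts it was then 0.37 (adjusted p = 0.601). The full list of 12 adipocyte markers, led by Lipe, summed to 5926, 5588 and 4044 in control, 1218, 8679 and 5109 in LATS1/2-KO and 1284, 3738 and 2831 in LATS1/2-Sox9-KO. Lipe, the hormone-sensitive lipase, gave most of the control sum (4740, 4661 and 2961 raw counts), so the sum was not higher in the knockouts as a group, though 9 of the 12 genes were called higher and 1 lower in LATS1/2-KO and 6 higher and 1 lower in LATS1/2-Sox9-KO, each against control, beside 17.1% and 17.8% of all tested genes called higher. The 9 became 2 without control replicate 2, 4 without control replicate 1, control replicate 3 or LATS1/2-KO replicate 2, and 6 without LATS1/2-KO replicate 3. In LATS1/2-Sox9-KO the 6 became 1 without any 1 control library or LATS1/2-Sox9-KO replicate 2, 2 without replicate 3 of that group and 8 without its replicate 1. Cfd, another gene of fat cells, had 0 counts in every control library and 3651 in LATS1/2-KO replicate 2.

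**Figure D2:**
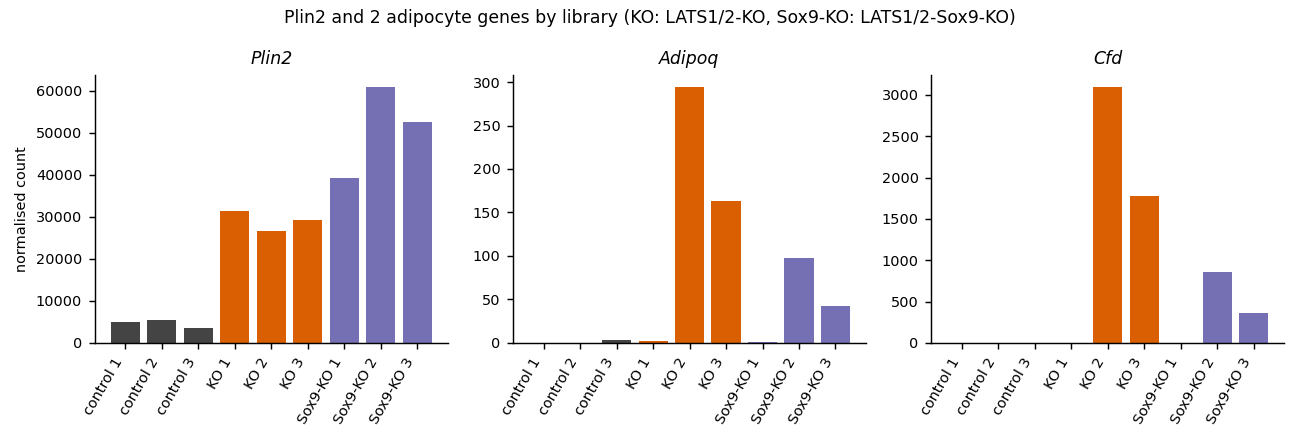
Bars show the normalised counts of Plin2, Adipoq and Cfd in each of the 9 libraries, coloured by genotype. Plin2 lies between 26540 and 60800 in the 6 knockout libraries, where Adipoq has raw counts of 1 to 347, and between 3577 and 5377 in the controls. The part of adipocyte RNA in the Plin2 values was not tested.

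Of the 9 leukocyte markers tested, 4 were higher in LATS1/2-KO and 5 in LATS1/2-Sox9-KO, with 0 lower in either, beside 17.1% and 17.8% of all tested genes called higher. With 1 library left out, the number called higher ranged from 3 to 5 in each knockout group. The 12 leukocyte markers, led by Csf1r, summed to 650.9 to 759.7 normalised counts in control, 2177 to 4220 in LATS1/2-KO and 3616 to 4991 in LATS1/2-Sox9-KO, while the B cell gene Ms4a1 and the T cell gene Cd3e were at 0 in every library. Csf1r made up most of each knockout sum. It was at 207.6, 128.1 and 139.4 in control, 2804, 2374 and 1753 in LATS1/2-KO and 2716, 3122 and 3875 in LATS1/2-Sox9-KO. The summed count of endothelial markers was 5263 to 6366 in control, 823.5 to 1128 in LATS1/2-KO and 387.1 to 1074 in LATS1/2-Sox9-KO, and Vwf alone made up 4610 to 5566 of the control sum. Of 8 tested endothelial markers 1 was higher and 2 were lower in LATS1/2-KO, with a list median of 0.39, and 1 was higher and 3 were lower in LATS1/2-Sox9-KO, with a median of −0.45, beside all-gene shares of 17.1% higher and 17.5% lower, and 17.8% and 19.6%. Fibroblast markers, led by Dcn, summed to 2445 to 9575 in control and to 2604 to 10160 over the knockouts. Within that sum 4 of 8 were higher and 1 lower in LATS1/2-KO (median 2.03) and 3 higher and 2 lower in LATS1/2-Sox9-KO (median 1.51), with the collagen gene Col3a1 higher at 3.14 (adjusted p = 0.00651) and 3.04 (adjusted p = 0.00702) and Dcn lower at −2.24 (adjusted p = 0.0429) and −4.79 (adjusted p = 0.0016 in edgeR). In LATS1/2-KO the 4 higher fibroblast markers became 2 without control replicate 1 or LATS1/2-KO replicate 1, and the call of Dcn was lost without any 1 of the libraries of the comparison other than control replicate 1. The part of these cells in the milk gene values was not tested.

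Set side by side, 7 of the 10 genes passed the filter, all but Csn1s2a, Wap and Glycam1. In LATS1/2-KO against control 3 of the 7 were called lower (Lalba, Btn1a1, Xdh) and 1 higher (Plin2), where 17.5% of the 19357 tested genes were called lower, 17.1% higher and 34.6% in either direction. In LATS1/2-Sox9-KO against control 5 were lower (these 3, Csn2 and Csn3) and 1 was higher, against 19.6% lower, 17.8% higher and 37.4% in all. Both comparisons use the same 3 control libraries and are not independent of each other. In LATS1/2-Sox9-KO against LATS1/2-KO 1 was lower and 0 were higher, against 2.16% lower, 1.55% higher and 3.71% in all. The other 6 comprised Plin2, which missed on size, and 5 genes with an adjusted p above 0.05. The median log2 fold change of the 7 was −1.65, −2.48 and −1.39 in the 3 comparisons, against 0.04, 0.01 and −0.02 over all tested genes. The libraries of the 2 groups did not overlap for 5, 5 and 3 of the 7 genes, where 61.6%, 68.8% and 27.9% of all tested genes did not overlap. In bulk RNA, fewer cells of a type and less RNA per cell cannot be told apart.

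**Figure D3:**
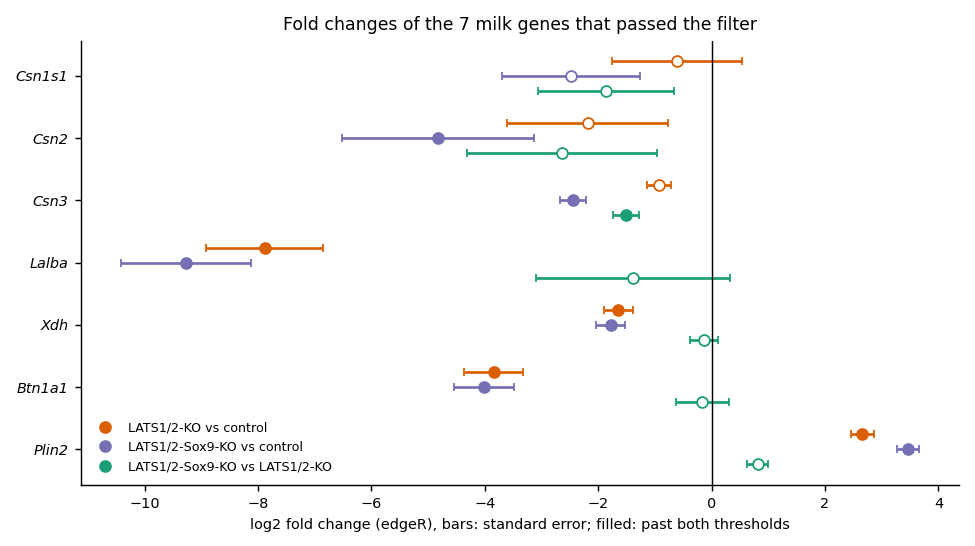
Log2 fold changes of the 7 milk genes that passed the filter, in the 3 comparisons, with bars for the SE from edgeR and filled points for genes past both thresholds. Lalba lies lowest at −7.89 and −9.27, Plin2 alone lies to the right of 0, and the wide bars of Csn1s1 and Csn2 (SE 1.14 to 1.69) go with a wide scatter between libraries.

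The order of levels between genes was read per kilobase of annotated exon. In control, the mean normalised count per kilobase was 9107 for Csn3, 6133 for Btn1a1, 1311 for Plin2, 712.6 for Xdh, 603.5 for Lalba, 45.56 for Csn1s1, 11.91 for Csn2 and 4.148 for Csn1s2a. The ranges of Csn3 (6780 to 11000) and Btn1a1 (2540 to 8240) overlapped, although Csn3 was the higher of the pair within each of the 3 control libraries. The ranges of Xdh (438 to 903) and Lalba (137 to 1100) overlapped as well, with Lalba above Xdh in control replicate 2 and below it in the other controls. In LATS1/2-KO the order began with Plin2 at 8269, followed by Csn3 at 4784, Btn1a1 at 427.5 and Xdh at 227.7, and Lalba had moved to 2.444, beside Csn2 at 2.607. In LATS1/2-Sox9-KO Plin2 stood at 14490 and Csn3 at 1681. The exon lengths count every annotated transcript, retained introns included, and so may understate the density of a gene, caseins included. How far this differs between the genes was not tested.

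The neighbourhood of the caseins was examined for what it shares with them. Within 500 kb of the casein genes the annotation has 26 protein-coding genes, of which 14 had no count in any library. Csn1s2b, a further casein gene between Csn1s2a and Csn3, had 12, 14 and 20 counts in control, 5, 11 and 0 in LATS1/2-KO and 2, 2 and 3 in LATS1/2-Sox9-KO. It missed the threshold in LATS1/2-KO (log2 fold change −1.89, adjusted p = 0.0973) and was lower in LATS1/2-Sox9-KO (−2.98, adjusted p = 0.0235, both in edgeR). Unlike the other caseins, Csn1s2b was not lowest in control replicate 3. Amtn, encoding amelotin, a protein of tooth enamel formation, had 369, 211 and 549 counts in control and 0 in all 6 knockout libraries. Sult1d1, a sulfotransferase gene upstream of the cluster, had 3 to 25 counts in control, 4 to 17 in LATS1/2-KO and 4 to 18 in LATS1/2-Sox9-KO, with no separation of the groups.

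**Figure D4:**
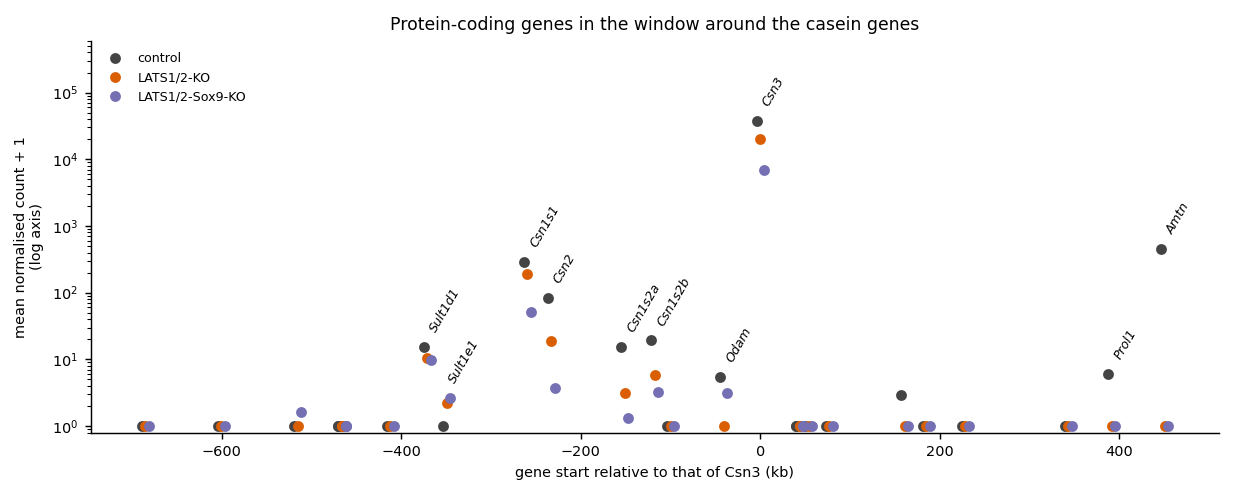
Group means of the normalised count plus 1, on a log axis, of the protein-coding genes around the casein cluster, by distance in kb from the start of Csn3. Csn3 stands at 6979 to 37820 in the 3 group means and the other caseins at 284.6 or less.

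The regulators of milk genes were called lower more often than higher. Of 21 lactation regulators 20 were tested, Prl having no count, and 10 were called lower and 2 higher in LATS1/2-KO, 11 lower and 2 higher in LATS1/2-Sox9-KO, each against control. Over all tested genes, 17.5% were lower and 17.1% higher in LATS1/2-KO, and 19.6% and 17.8% in LATS1/2-Sox9-KO. The list holds inhibitors of STAT signalling as well, so these counts give no direction of the prolactin signal. Of these inhibitors, Socs3 and Cish were lower in LATS1/2-KO at −3.59 (adjusted p = 2.46e-05) and −2.06 (adjusted p = 8.57e-05 in edgeR), and Socs1 and Socs2 were not called. Prlr, the prolactin receptor, had normalised counts of 175200, 152400 and 201200 in control, 11400, 2654 and 4854 in LATS1/2-KO and 1774, 1953 and 2987 in LATS1/2-Sox9-KO. It was 28-fold lower in LATS1/2-KO (log2 fold change −4.81, SE 0.50, adjusted p = 3.61e-05 in edgeR) and 78.8-fold lower in LATS1/2-Sox9-KO. Control replicate 3, the lowest control for each of the 7 milk genes that passed the filter, was the highest control for Prlr.

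Stat5a, which carries the prolactin signal to the nucleus, had normalised counts of 5221, 5467 and 12050 in control, 469.4, 392.3 and 647.5 in LATS1/2-KO and 347.2, 356.7 and 366.2 in LATS1/2-Sox9-KO. It was lower at log2 fold changes of −3.91 and −4.41 (adjusted p = 1.29e-05 and 5.54e-06 in edgeR), and its partner Stat5b at −1.93 and −1.85 (adjusted p = 6.06e-05 and 6.28e-05). Pgr fell the furthest of the list in LATS1/2-KO, at −5.91 (adjusted p = 2.99e-05), and at −9.34 in LATS1/2-Sox9-KO (adjusted p = 4.48e-06). Elf5, the alveolar factor, behaved otherwise: it was 4882 ± 2155 in control and 3844 ± 688 in LATS1/2-KO (SD, n = 3 in each group; log2 fold change −0.35, SE 0.35, adjusted p = 0.427 in edgeR), and 1793 ± 612 in LATS1/2-Sox9-KO (−1.45, adjusted p = 0.00558). Id2, an inhibitor of basic helix-loop-helix factors, and Nr3c1, the glucocorticoid receptor, were higher in LATS1/2-KO at 1.21 (adjusted p = 0.000201) and 1.11 (adjusted p = 4.72e-05).

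Other genes of milk fat were lower or did not pass, with few higher. Of 21 tested, 7 were lower and 2 higher in LATS1/2-KO, and 8 lower and 1 higher in LATS1/2-Sox9-KO, against 17.5% and 17.1%, and 19.6% and 17.8%, of all tested genes. With 1 library left out, the number higher ranged from 1 to 2 in LATS1/2-KO and from 0 to 1 in LATS1/2-Sox9-KO. Dgat2, which completes triglyceride synthesis, had normalised counts of 21780, 18420 and 32900 in control, 638.9, 155 and 336.5 in LATS1/2-KO and 128.1, 74.73 and 103.8 in LATS1/2-Sox9-KO. It was 64.8-fold lower in LATS1/2-KO (log2 fold change −6.02, adjusted p = 1.11e-05 in edgeR), 238-fold lower in LATS1/2-Sox9-KO, and lower between the knockouts too (−1.87, adjusted p = 0.0415). Olah, the thioesterase that ends medium-chain fatty acid synthesis, and the desaturase gene Scd2 were lower at −5.15 (adjusted p = 0.00459) and −2.93 (adjusted p = 0.000126). The value of Olah rests on counts near 0, with 18, 32 and 16 raw counts in control and 0, 2 and 0 in LATS1/2-KO. The 2 higher genes in LATS1/2-KO were Cidec, a droplet protein of fat cells, and the lipase gene Lpl, at 8.61 (adjusted p = 0.013) and 2.58 (adjusted p = 0.0169). Without the adipocyte-bearing libraries 0 were called higher.

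Of the 16 other milk protein genes tested, 6 were lower and 6 higher in LATS1/2-KO, and 7 lower and 4 higher in LATS1/2-Sox9-KO, beside the same all-gene shares of 17.5% and 17.1%, and 19.6% and 17.8%. Ltf, encoding lactoferrin, went from 66020 ± 17790 in control to 10990 ± 5109 in LATS1/2-KO (SD, n = 3 in each group; log2 fold change −2.59, adjusted p = 0.00015 in edgeR). Folr1, a folate receptor shed into milk, was lower at −3.39 (adjusted p = 1.37e-05), and Cel, a milk lipase, at −2.79 (adjusted p = 0.00123). Among the higher genes were Spp1, encoding osteopontin, at 4.34 (adjusted p = 0.000606), Pthlh, encoding parathyroid hormone-related protein, at 3.96 (adjusted p = 0.000959), and the acute-phase gene Saa3 at 3.78 (adjusted p = 0.0175). The value of Saa3 rests on few counts, with 0, 0 and 4 raw counts in control and 20, 37 and 21 in LATS1/2-KO. Without control replicate 3 the number called higher in LATS1/2-KO was 3.

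Lactose synthesis needs glucose uptake and galactosyltransferase beside alpha-lactalbumin. Of 9 genes 3 were lower and 1 higher in each knockout group, not all of them the same genes, where 17.5% and 19.6% of all tested genes were lower. B4galt1, the galactosyltransferase that alpha-lactalbumin redirects, was 8024 ± 383 in control, 3754 ± 203 in LATS1/2-KO and 4474 ± 389 in LATS1/2-Sox9-KO (SD, n = 3 in each group), 2.14-fold lower in LATS1/2-KO (log2 fold change −1.10, adjusted p = 1.72e-05 in edgeR). Hk2, a hexokinase, and Slc2a1, the glucose transporter GLUT1, were lower at −3.18 (adjusted p = 3.43e-05) and −1.22 (adjusted p = 0.000836), and Ugp2, which makes UDP-glucose, was higher at 1.28 (adjusted p = 0.000195). In LATS1/2-Sox9-KO the lower genes were Hk2 (−2.82, adjusted p = 5.14e-05), the galactokinase gene Galk1 (−1.14, adjusted p = 1.71e-05) and the UDP-galactose transporter gene Slc35a2 (−1.06, adjusted p = 0.000757), while B4galt1 and Slc2a1 missed on size at −0.84 and −0.87 (adjusted p = 6.54e-05 and 0.00549 in edgeR). In LATS1/2-KO, Ugp2 was not called once the adipocyte-bearing libraries were left out, which leaves 1 library in that group. That library, replicate 1, had 6587 normalised counts of Ugp2, against 3184 to 3835 in the control libraries.

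Of 12 ion and mineral transporters 10 were tested, with 4 lower and 2 higher in LATS1/2-KO and 5 lower and 2 higher in LATS1/2-Sox9-KO, again with 17.5% and 19.6% of all tested genes lower. With 1 library left out, the number higher in LATS1/2-Sox9-KO ranged from 1 to 2. Slc12a2, the sodium-potassium-chloride cotransporter, and Slc5a5, the sodium-iodide symporter, were 13.4-fold and 10.6-fold lower in LATS1/2-KO (log2 fold changes −3.75 and −3.40, adjusted p = 1.6e-05 and 1.75e-05 in edgeR), and the phosphate transporter gene Slc34a2 was lower at −2.92 (adjusted p = 0.00202). The calcium channel gene Trpv6 and Slc40a1, the iron exporter ferroportin, were higher at 2.12 (adjusted p = 0.00162) and 1.79 (adjusted p = 4.66e-05). Of 14 genes of casein phosphorylation and the secretory pathway, 6 were lower and 1 higher in LATS1/2-KO and 8 lower and 1 higher in LATS1/2-Sox9-KO, beside the same shares. The lower genes in LATS1/2-KO included the secretory cell factors Bhlha15 (−4.35, adjusted p = 0.000414), Creb3l1 (−3.33, adjusted p = 0.000385) and Creb3l2 (−2.66, adjusted p = 3.87e-06), and the higher gene was Sec23a, a coat protein of vesicles leaving the endoplasmic reticulum (1.45, adjusted p = 9.62e-06).

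Between the knockouts 11 of the 90 tested genes of the 6 milk synthesis lists were called, 8 lower and 3 higher, beside 2.16% lower, 1.55% higher and 3.71% in all of the tested genes of the table. Casein phosphorylation gave 2, both lower in LATS1/2-Sox9-KO: Fam20c, the Golgi kinase that phosphorylates caseins, at −1.54 (adjusted p = 0.0422), and its binding partner Fam20a at −2.38 (adjusted p = 0.00963 in edgeR). Cel and the iron-binder gene Lcn2 were lower among the other milk proteins, at −3.20 (adjusted p = 0.0169) and −1.31 (adjusted p = 0.0415). Slc5a5 and Slc40a1 were lower among the transporters at −1.75 (adjusted p = 0.0129) and −1.65 (adjusted p = 0.00358), with Atp2c2, a Golgi calcium pump, higher at 1.67 (adjusted p = 0.0278). Pgr was lower at −3.43 (adjusted p = 0.0136), Id2 higher at 1.75 (adjusted p = 0.00147) and the hexokinase gene Hk1 higher at 1.08 (adjusted p = 0.00849). With 1 library left out, the lower calls ranged from 0 to 2 for casein phosphorylation and the secretory pathway, for the other milk proteins, for milk fat and for the regulators, and from 1 to 2 for the transporters. The counts without LATS1/2-Sox9-KO replicate 2 were 0 for the first 4 of these lists and 1 for the transporters, and those without LATS1/2-Sox9-KO replicate 1 were 0 for the other milk proteins and for milk fat. Milk fat also had 0 without replicate 3 of either knockout group. The higher calls of Atp2c2 and Hk1 were also lost with 1 library left out, among others LATS1/2-Sox9-KO replicate 2 for the transporters and LATS1/2-Sox9-KO replicate 1 for lactose synthesis. Fam20a, Fam20c, Lcn2, Atp2c2 and Hk1, like Krt17, Acta2, Trp63, Gata3, Prom1, Krt19, Lep, Col3a1, Socs1, Socs2, Socs3, Cish, Galk1 and Slc35a2 above, were chosen after their values were seen.

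**Figure D5:**
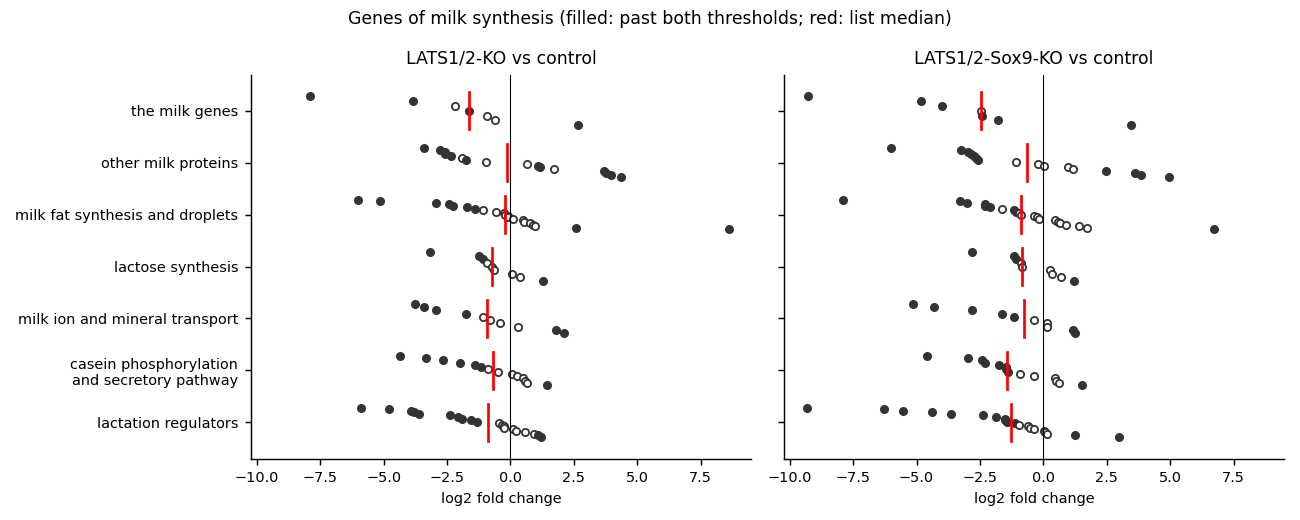
Log2 fold changes against control of the tested genes of the 10 milk genes and of 6 milk synthesis lists (cell type markers are not drawn), 1 point per gene, filled where past both thresholds, with the list median in red. The medians of these lists lie between −2.48 and −0.14, and each of them holds genes on both sides of 0.

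The summed count of the 10 alveolar progenitor markers was 124500 to 384000 in control, 129000 to 151000 in LATS1/2-KO and 74170 to 78930 in LATS1/2-Sox9-KO. By this sum, control replicate 3 lay near LATS1/2-KO. Mfge8 and Trf made up most of the sum in each control library. Mfge8 was at 119000, 138800 and 51050 in control and 32890, 24460 and 33920 in LATS1/2-KO. Trf was at 138000, 156700 and 22400 in control and 19390, 13360 and 21940 in LATS1/2-KO. The sums therefore do not show how the other markers compared. Of the 10 markers 2 were called lower in LATS1/2-KO and 5 in LATS1/2-Sox9-KO, and 0 were higher in either, where 17.5% and 19.6% of all tested genes were called lower. Their median log2 fold change was 0.17 in LATS1/2-KO, where 7 of the 10 lay above 0, and −1.27 in LATS1/2-Sox9-KO. Trf and Mfge8, a milk fat globule protein, were the 2 lower in LATS1/2-KO, at log2 fold changes of −2.54 (adjusted p = 0.00435) and −1.76 (adjusted p = 0.000904 in edgeR). Kit, a receptor of luminal progenitors, was 18790 ± 5492 in control and 19650 ± 13220 in LATS1/2-KO (SD, n = 3 in each group) and was lower in LATS1/2-Sox9-KO (−1.66, adjusted p = 0.011). The part of this marker RNA in the milk gene values was not tested.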

How the data were processed

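RNA was sequenced by the authors from TruSeq RNA v2 libraries, a kit that does not mark strand. The authors deposited raw counts per gene, with whole numbers and no normalization. Per the submitters' processing notes, reads were aligned to mm10 with STAR 2.6.0c and counted with featureCounts (Subread 1.6.2), and the study's methods describe uniquely aligned proper pairs counted on the same strand. With this kit that setting cannot separate a gene from an antisense partner, and its effect on the counts was not tested. Counts were fitted here with edgeR 4.0.16 (TMM factors, quasi-likelihood F test over all 9 libraries, filterByExpr, R 4.3.3), and p-values were adjusted by Benjamini-Hochberg over 19357 genes. A call needed more than 1 log2 unit of change in either direction with adjusted p no greater than 0.05. The SE is the log2 fold change divided by the square root of F. With 3 libraries against 3, an exact two-sided permutation test cannot go below 0.1 and was not used. The fit was tested on simulated data, where 194 of 200 changed genes were recovered in LATS1/2-KO against control over 17960 genes. The simulation gave all genes the same fixed spread and changed only genes above a count floor. It therefore gives no recovery rate for genes that scatter between libraries like Csn1s1, Csn2 and Lalba.

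The 10 genes, the 13 other lists and the tests were chosen with earlier results of these data known. From each list, at most 3 genes per direction with the largest change past both thresholds in LATS1/2-KO against control were named, besides Prlr, Stat5a, Stat5b and Elf5. Gene positions came from GENCODE annotation of GRCm38 and promoters from RefSeq. Alternatives were DESeq2 1.42.0, other scaling factors and filters, glmTreat, a replicate block, the compared groups alone and each library left out. Leaving out the 4 libraries with adipocyte RNA was added after seeing the data.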

Additional observations from a re-analysis of the deposited data

How the results depend on the processing

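Of 21 fold changes of the milk genes, 14 kept their direction and their side of the threshold under every alternative that gave a value. The count of milk genes called lower in LATS1/2-KO ranged from 3 to 4. Between the knockout groups the 1 lower call, Csn3, was lost (0 lower) under glmTreat, which tests against the fold threshold itself, and without the 4 adipocyte-bearing libraries. All genes called numbered 4005 under glmTreat against 6705 in LATS1/2-KO, 4708 against 7248 in LATS1/2-Sox9-KO, and, between the knockouts, 32 under glmTreat, 1261 in DESeq2 and 76 without the adipocyte-bearing libraries against 719, with 201 to 1079 when 1 library was left out, lowest without LATS1/2-Sox9-KO replicate 2 and highest without LATS1/2-KO replicate 1. With 1 library left out, Csn1s1 in LATS1/2-KO ranged from −1.47 to 0.92, reversed without control replicate 2. Between the knockouts, Btn1a1 ranged from −0.49 to 0.25 and Xdh from −0.28 to 0.03 with 1 library left out, and they were 0.29 and 0.03 without the adipocyte-bearing libraries. The cause of these changes was not tested. The log2 fold change of Plin2 was 2.49 to 2.78 in LATS1/2-KO and 3.12 to 3.64 in LATS1/2-Sox9-KO. Wap, Glycam1 and Csn1s2a, at 0 to 36 counts per library, were too low to test.

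Same-numbered libraries did not deviate together (correlations of −0.07 to 0.17), so the numbers were not taken as a pairing. With a replicate block, 6521, 7087 and 601 genes were called in the 3 comparisons, and Csn2 in LATS1/2-Sox9-KO stood at −5.45 (adjusted p = 0.0525 in edgeR).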

Other observations

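Of the 16 nearest protein-coding neighbours of the milk genes that are not milk genes of the set, 9 were tested. In LATS1/2-KO against control 3 were lower, 1 was higher and 5 were not called, and in LATS1/2-Sox9-KO 4 were lower, 1 was higher and 4 were not called, beside 17.5% lower and 17.1% higher, and 19.6% and 17.8%, of all tested genes. Abt1, Tbrg4 and Dennd4c, next to Btn1a1, Wap and Plin2, were not called in either comparison, at 0.62, 0.22 and 0.18 in LATS1/2-KO. Btn2a2, a butyrophilin gene beside Btn1a1, had a normalised count of 110.2 ± 69.5 in control, 5.32 ± 5.04 in LATS1/2-KO and 4.70 ± 4.56 in LATS1/2-Sox9-KO (SD, n = 3 in each group), and was lower in both (log2 fold changes −4.36 and −4.51, adjusted p = 0.00744 and 0.00612 in edgeR). Haus6, a spindle gene beside Plin2, was higher in both at 2.52 and 2.35 (adjusted p = 2.22e-06 and 1.83e-06), as Plin2 was. Ramp3, a receptor-modifying gene beside Wap, was lower in LATS1/2-KO at −3.34 (adjusted p = 0.00877) and at −0.81 (adjusted p = 0.39) in LATS1/2-Sox9-KO. Its raw counts were low, at 38, 30 and 20 in control, 0, 6 and 5 in LATS1/2-KO and 7, 24 and 31 in LATS1/2-Sox9-KO. Ehd3, beside Xdh, was lower at −1.12 and −2.75 (adjusted p = 0.0376 and 0.000382).

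As a description over the 9 libraries, which share genotype, Xdh and Btn1a1 were each the gene most like the other (Pearson r of log2 CPM 0.994). Plin2 was most like Wdr70 (0.997), Lalba most like Celsr2 (0.994) and Csn3 most like Mir1938 (0.989). Csn1s1 and Csn2 followed each other at 0.88, Csn3 and Plin2 went opposite ways at −0.86, and Csn1s1 and Plin2 stood at 0.02.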
